A study of Mus musculus with 24 samples.

Results

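The genes described are those of the mouse hair fibre and its inner root sheath: the hair keratins, the keratin-associated proteins (Krtap genes), the inner root sheath keratins, trichohyalin (Tchh) and S100a3. They were chosen by symbol, as every Krtap gene with a family number, Krt25 to Krt28, Krt31, Krt32, Krt33a, Krt33b, Krt34 to Krt36, Krt71 to Krt75, Krt81 to Krt86, Tchh and S100a3. Of 18193 genes with a probe set of their own on the arrays, 60 met the rule (0.33%), and 19 other genes that meet it had no such probe set. Where a gene had several probe sets, the one with the highest mean was used. The 60 genes are 38 Krtap genes, 7 type I and 5 type II hair keratins, 7 inner root sheath keratins, Krt75, Tchh and S100a3. They lie in clusters, 20 on chromosome 16, 21 on chromosome 11, 9 on chromosome 15 and the other 10 on chromosomes 7, 10, 3 and 1.

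The study modelled systemic sclerosis by a graft-versus-host reaction (GVH-SSc) in female mice that lack Rag2, a gene that T and B cells need to form. Every recipient, controls included, was RAG2-/-. The syngeneic controls received Balb/c splenocytes, with no antibody named for them. The GVH-SSc mice received B10.D2 splenocytes together with an antibody, which either was an isotype control or bound IFNAR1, 1 of the chains that make up the receptor for type I interferons. Shaved skin from between the shoulder blades was taken at day 14 or day 28, and each of the 6 groups has 4 single-colour arrays, 24 in all. The labels give no hair cycle stage, no age of the mice and no batch, and do not tie each array to an animal of its own, so the p-values below measure the spread between these arrays, which may be technical. Levels are log2(intensity + 16), and a difference of 1 is a doubling on that scale.

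In mice, hair follicles pass through growth (anagen), regression (catagen) and rest (telogen), and follicles of one skin region can pass through these phases together, as a wave. Fibre genes are transcribed in the lower follicle during growth and are silent at rest. In the growing follicle the inner root sheath, which moulds the fibre, makes its own keratins and trichohyalin. The cells of the fibre cortex and cuticle then make hair keratins, and late in their maturation embed the filaments in a matrix of Krtap proteins, which are rich in sulfur or in glycine and tyrosine. Keratins 25 to 28 and 71 to 74 belong to the sheath and not to the shaft, so the set covers more than the fibre itself.

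RefSeq windows from 250 bases before to 50 bases after the transcription start (mouse GRCm38.p6) were at hand for 53 of the 60 genes, in 56 windows. The letters TATAAA, the core of a TATA box, were in 42 of the 56 windows (75%) and in 13.6% of all 32851 windows, on either strand. On the gene's own strand, with the first base 40 to 20 bases before the start, they were in 29 windows (51.8%), against 1.99% of all. CTTTGA, a core read by the LEF1 and TCF factors, was in 17 windows (30.4%, against 16% of all), and TAATTG, a homeodomain core, was in 16 (28.6%, against 8%). The windows of 8 genes whose levels are described below are shown, read 5′ to 3′ on the gene's strand, with these 3 motifs on either strand in capitals. None of the motifs overlaps another in these 8 windows. Krt71, Krt25 and the others of the first 5 have TATAAA, beginning 40, 30, 31, 29 and 31 bases before the start in the order given, and Krt75, Tchh and Krtap19-1 do not have those letters in the window.
Krt71, chr15:101743048-101743347, minus strand: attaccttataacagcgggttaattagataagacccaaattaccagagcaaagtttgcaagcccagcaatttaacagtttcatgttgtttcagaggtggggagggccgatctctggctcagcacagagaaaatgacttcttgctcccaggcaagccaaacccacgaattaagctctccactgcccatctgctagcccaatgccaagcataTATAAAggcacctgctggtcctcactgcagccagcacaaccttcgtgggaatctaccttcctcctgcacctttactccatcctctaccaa
Krt25, chr11:99322902-99323201, minus strand: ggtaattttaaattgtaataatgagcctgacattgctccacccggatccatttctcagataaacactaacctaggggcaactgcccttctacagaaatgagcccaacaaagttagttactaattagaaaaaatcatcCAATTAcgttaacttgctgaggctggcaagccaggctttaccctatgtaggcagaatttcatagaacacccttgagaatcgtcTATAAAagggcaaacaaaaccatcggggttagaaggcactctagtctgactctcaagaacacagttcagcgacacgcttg
Krt34, chr11:100041505-100041804, minus strand: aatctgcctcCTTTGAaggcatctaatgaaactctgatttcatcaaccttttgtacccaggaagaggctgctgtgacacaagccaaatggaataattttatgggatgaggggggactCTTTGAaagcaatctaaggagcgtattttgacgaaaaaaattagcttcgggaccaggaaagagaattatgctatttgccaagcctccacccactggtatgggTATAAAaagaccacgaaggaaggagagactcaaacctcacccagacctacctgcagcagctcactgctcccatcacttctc
Krtap8-1, chr16:89487903-89488202, minus strand: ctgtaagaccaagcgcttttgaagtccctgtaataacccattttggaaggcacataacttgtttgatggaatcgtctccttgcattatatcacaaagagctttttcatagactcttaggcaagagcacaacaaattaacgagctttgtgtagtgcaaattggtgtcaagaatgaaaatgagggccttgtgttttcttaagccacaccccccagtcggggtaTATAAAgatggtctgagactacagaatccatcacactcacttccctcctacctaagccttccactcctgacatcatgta
Krtap4-6, chr11:99665911-99666210, minus strand: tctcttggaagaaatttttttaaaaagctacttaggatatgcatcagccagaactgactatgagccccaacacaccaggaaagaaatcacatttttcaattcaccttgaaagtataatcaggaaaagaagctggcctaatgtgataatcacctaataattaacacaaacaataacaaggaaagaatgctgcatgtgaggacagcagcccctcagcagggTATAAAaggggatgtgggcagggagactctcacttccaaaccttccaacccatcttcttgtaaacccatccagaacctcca
Krt75, chr15:101573855-101574154, minus strand: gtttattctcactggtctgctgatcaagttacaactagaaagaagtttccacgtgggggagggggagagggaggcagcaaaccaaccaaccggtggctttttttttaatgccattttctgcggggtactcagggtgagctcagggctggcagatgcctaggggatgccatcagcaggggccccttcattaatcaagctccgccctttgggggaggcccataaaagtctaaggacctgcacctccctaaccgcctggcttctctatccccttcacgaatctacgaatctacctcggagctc
Tchh, chr3:93442080-93442379, plus strand: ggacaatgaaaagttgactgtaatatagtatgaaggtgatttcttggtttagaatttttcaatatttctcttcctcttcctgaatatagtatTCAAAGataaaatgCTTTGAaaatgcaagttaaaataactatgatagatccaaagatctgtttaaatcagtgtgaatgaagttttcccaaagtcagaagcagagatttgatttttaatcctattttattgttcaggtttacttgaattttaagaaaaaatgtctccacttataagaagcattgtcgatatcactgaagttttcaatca
Krtap19-1, chr16:88869361-88869660, minus strand: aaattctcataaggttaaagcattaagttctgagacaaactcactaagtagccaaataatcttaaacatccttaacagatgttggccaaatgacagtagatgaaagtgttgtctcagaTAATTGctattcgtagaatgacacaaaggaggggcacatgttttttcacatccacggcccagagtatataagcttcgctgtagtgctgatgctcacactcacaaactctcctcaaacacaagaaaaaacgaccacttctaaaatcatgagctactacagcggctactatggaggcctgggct
All 7 inner root sheath keratin windows had TATAAA on either strand. In Krt72 the match was on the opposite strand only. In Krt27 it began 15 bases before the start, outside the range of 40 to 20. A match of letters is a description of these windows and says nothing of which factor binds there.

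The hair genes were near their lowest level on most arrays and high together on a few. Arrays of the same group stood far apart, except in the isotype and anti-IFNAR1 groups of day 14. The mean of the 60 genes was 4.57, 5.09, 7.58 and 4.62 on the syngeneic day 14 arrays (replicates 1 to 4), 4.54, 4.54, 4.52 and 4.54 on the isotype day 14 arrays, and 4.54, 4.54, 4.55 and 4.55 on the anti-IFNAR1 day 14 arrays. At day 28 it was 6.37, 5.58, 11.44 and 9.54 on the syngeneic arrays, 6.65, 4.51, 4.52 and 4.57 on the isotype arrays, and 4.58, 12.74, 4.66 and 5.09 on the anti-IFNAR1 arrays. All 4 syngeneic day 28 arrays were thus above all 8 GVH-SSc arrays of day 14, whereas in the isotype and the anti-IFNAR1 groups of day 28 a single array, replicate 1 and replicate 2, stood above the rest. The group means were 5.46 ± 1.43, 4.53 ± 0.01 and 4.55 ± 0.01 at day 14 and 8.23 ± 2.74, 5.06 ± 1.06 and 6.77 ± 3.99 at day 28, for syngeneic, isotype and anti-IFNAR1 (SD, n = 4 arrays each). In whole skin, fewer follicle cells and less RNA per follicle cell cannot be told apart.

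**Figure D1:**
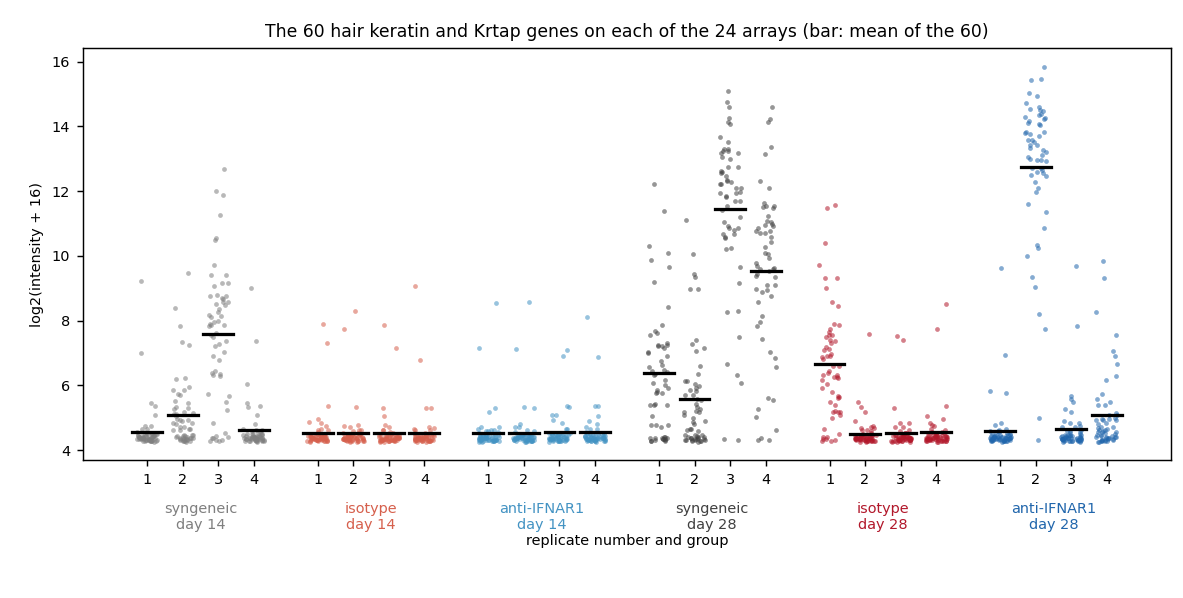
Level of each of the 60 hair genes (points, log2(intensity + 16)) on each of the 24 arrays, by replicate number and group, with a bar at their mean. The bar is at 12.74 on anti-IFNAR1 day 28 replicate 2 and at 11.44 and 9.54 on syngeneic day 28 replicates 3 and 4, and between 4.52 and 4.55 on the isotype and anti-IFNAR1 arrays of day 14.

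Counted gene by gene, 58 of the 60 genes were at least 1 above their own lowest of the 24 values on anti-IFNAR1 day 28 replicate 2, 58 on syngeneic day 28 replicate 3 and 54 on replicate 4. The count was 38 and 23 on syngeneic day 28 replicates 1 and 2, 48 on syngeneic day 14 replicate 3, 44 on isotype day 28 replicate 1, 14 on syngeneic day 14 replicate 2 and 12 on anti-IFNAR1 day 28 replicate 4. On each of the other 15 arrays it was between 0 and 3. Anti-IFNAR1 day 28 replicate 2 was the highest of the 24 arrays for 59 genes, and for 55 genes the top 3 arrays were that array and syngeneic day 28 replicates 3 and 4. The 24 arrays therefore fall in a graded order of hair gene level, from the 15 where at most 3 genes are raised over their lowest to the 3 where nearly the whole set is. Which phase of the cycle each skin was in was not read from the tissue here, and only the RNA levels are given.

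Krt71, the type II keratin of the inner root sheath, was 4.47, 5.85, 10.55 and 4.45 on the syngeneic day 14 arrays and 9.87, 8.97, 13.17 and 13.37 on the syngeneic day 28 arrays. It was between 4.44 and 4.65 on the 8 GVH-SSc arrays of day 14. At day 28 it was 9.73, 4.45, 4.45 and 4.45 with the isotype and 4.39, 14.94, 4.46 and 6.16 with anti-IFNAR1. All syngeneic day 28 arrays were high, and 3 of 4 isotype and 2 of 4 anti-IFNAR1 arrays were near the lowest level seen. The isotype group overlapped the syngeneic one through replicate 1. Anti-IFNAR1 replicate 2 lay above all syngeneic day 28 arrays, and the others of its group lay below them. Krt33a, a type I keratin of the fibre cortex, was 4.37, 5.96, 9.42 and 4.36 on the syngeneic day 14 arrays and 7.85, 6.35, 13.19 and 12.09 at day 28. It was 6.91, 4.35, 4.35 and 4.36 on the isotype day 28 arrays, 4.36, 14.36, 4.36 and 4.64 on the anti-IFNAR1 day 28 arrays and at 4.35 or 4.36 on all GVH-SSc arrays of day 14. Krt33a was thus high on the same arrays as Krt71. Tchh, a protein that cross-links filaments in the inner root sheath and medulla, was 6.99, 9.47, 12.69 and 7.37 on the syngeneic day 14 arrays and 12.23, 11.10, 15.11 and 14.59 at day 28. It was 11.56, 7.60, 7.40 and 8.52 on the isotype day 28 arrays and 6.93, 15.45, 7.82 and 9.86 on the anti-IFNAR1 day 28 arrays. Its day 14 values were 7.89, 7.75, 7.15 and 6.78 with the isotype and 7.17, 7.13, 7.09 and 6.89 with anti-IFNAR1. The 3 genes that mark the set therefore moved together over the arrays.

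**Figure D2:**
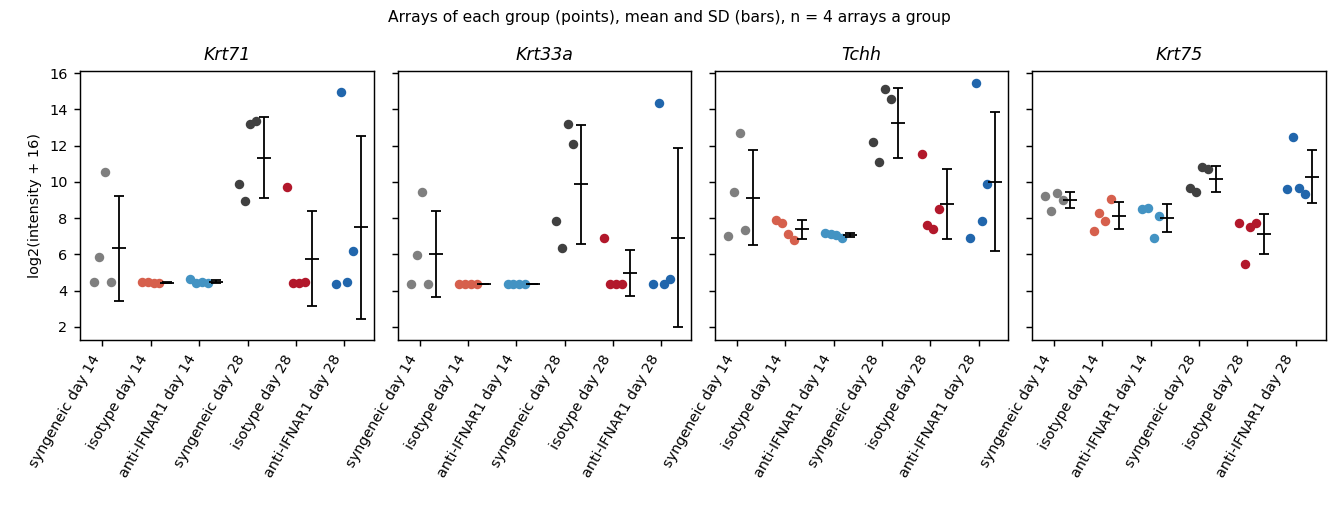
Krt71, Krt33a, Tchh and Krt75 on the 4 arrays of each group (points, log2(intensity + 16)), with the group mean and its SD at the right of each group. Krt71 and Krt33a reach 14.94 and 14.36 on 1 of the 4 anti-IFNAR1 day 28 arrays, while Krt75 lies between 5.48 and 7.75 on the isotype day 28 arrays and between 9.33 and 12.46 on the anti-IFNAR1 ones.

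The other sheath keratins followed the same arrays. Krt25, a type I sheath keratin and the gene with the largest range of the set (11.23), was 11.40, 10.05, 14.76 and 14.13 on the syngeneic day 28 arrays, 11.49, 4.73, 4.73 and 4.95 on the isotype ones and 4.78, 15.85, 5.66 and 8.25 on the anti-IFNAR1 ones. Krt27, its type I neighbour, was 10.32, 9.34, 14.59 and 14.24 on the syngeneic day 28 arrays and 10.40, 4.69, 4.84 and 4.79 on the isotype ones. Isotype replicate 1 lay within the syngeneic range for both genes, and the other 3 isotype arrays lay below it. Krt72, found in the sheath cuticle, was 5.07, 4.90, 10.69 and 9.55 on the syngeneic day 28 arrays, 5.93 on isotype replicate 1 and 12.28 on anti-IFNAR1 replicate 2. Krt72 was thus close to its lowest on syngeneic day 28 replicates 1 and 2, where Krt25 and Krt27 were not.

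Among the fibre keratins, Krt34, a type I keratin of the cortex, was 7.57, 7.29, 13.25 and 11.50 on the syngeneic day 28 arrays, 7.56 on isotype day 28 replicate 1 and 14.29 on anti-IFNAR1 day 28 replicate 2. Krt86, a type II cortex keratin, was 7.61, 6.61, 12.58 and 10.72 on the syngeneic day 28 arrays, 7.54 on isotype replicate 1 and 13.83 on anti-IFNAR1 replicate 2. The type II keratins Krt81 and Krt83 showed the same order, with 6.07, 5.84, 13.07 and 10.76 for Krt81. Krt84, a type II keratin best known from the tongue, was above 5 on 2 arrays, at 6.09 on syngeneic day 28 replicate 3 and 7.73 on anti-IFNAR1 day 28 replicate 2. Krt36, a type I keratin, had a narrow range, with 5.40, 5.43, 6.66 and 7.02 on the syngeneic day 28 arrays, 5.39, 5.32, 5.30 and 5.36 on the isotype ones and 5.83, 9.05, 5.49 and 5.48 on the anti-IFNAR1 ones; its probe set can bind several transcripts of the gene. S100a3, a calcium-binding protein of the fibre cuticle, was 6.46, 4.86, 11.43 and 11.23 on the syngeneic day 28 arrays, 7.39 on isotype replicate 1 and 12.66 on anti-IFNAR1 replicate 2, and at 4.27 on the other 3 isotype arrays.

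Of the Krtap genes, those of the glycine- and tyrosine-rich families had the widest median range, 9.77 over 13 genes, against 9.26 over the 8 genes of high sulfur families and 7.93 over the 14 of ultra-high sulfur families. Krtap8-1, of a glycine- and tyrosine-rich family, was 4.31, 7.24, 11.25 and 4.31 on the syngeneic day 14 arrays and 10.10, 8.97, 14.26 and 13.15 at day 28. It was 9.30 on isotype day 28 replicate 1 and 4.31 on the other 3, and 4.31, 14.73, 5.18 and 7.55 on the anti-IFNAR1 day 28 arrays. Krtap4-6, of an ultra-high sulfur family, was 7.68, 7.15, 11.21 and 10.96 on the syngeneic day 28 arrays and 6.17, 4.28, 4.26 and 4.28 on the isotype ones, which did not overlap. Krtap1-5, of a high sulfur family, was 6.76, 5.18, 13.32 and 11.07 on the syngeneic day 28 arrays and 14.16 on anti-IFNAR1 replicate 2. These families thus shared the high arrays with the keratins. Krtap13 and Krtap5-3 were flat, with ranges of 0.0139 and 0.664 over the 24 arrays, and Krtap5-3 was highest, at 4.99, on anti-IFNAR1 day 28 replicate 2. The probe sets of Krtap11-1, Krtap16-3, Krtap12-1, Krtap5-1 and Krt82 can bind related transcripts, so these values may be shared with close copies.

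Each gene was also set on its own range, with its lowest array at 0% and its highest at 100%. On the 4 arrays of intermediate level given here, Tchh reached a larger share than any class of fibre keratin or Krtap gene. On syngeneic day 28 replicate 1, Tchh was at 63% of its range, Krt75 at 60%, the 7 sheath keratins at a median of 30%, the type I hair keratins at 22% and the type II at 17%. The Krtap classes there were at 25% (high sulfur), 16% (glycine- and tyrosine-rich) and 8% (ultra-high sulfur). On syngeneic day 28 replicate 2, Tchh was at 50%, the sheath keratins at 15%, the type I hair keratins at 16%, and the same 3 Krtap classes at 11%, 0% and 1%. On isotype day 28 replicate 1, Tchh was at 55%, the sheath keratins at 51%, the type I hair keratins at 26%, and the Krtap classes at 25%, 27% and 16%. On syngeneic day 14 replicate 3, Tchh was at 68%, the sheath keratins at 41%, the type I hair keratins at 39%, and the Krtap classes at 42%, 39% and 32%. The Krtap classes thus lay on both sides of the hair keratins, with the ultra-high sulfur genes below the type I hair keratins on all 4 arrays. These shares are a description of single arrays, with no replicate of any such state. They also depend on the probe set. Most of the 60 genes have their lowest values near the bottom of the scale (median of 4.37 on isotype day 14 replicate 3). Tchh was well above that on every array. A dim probe set can stay near 0% until its signal passes the background, and how far this sets the order of the classes was not tested.

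**Figure D3:**
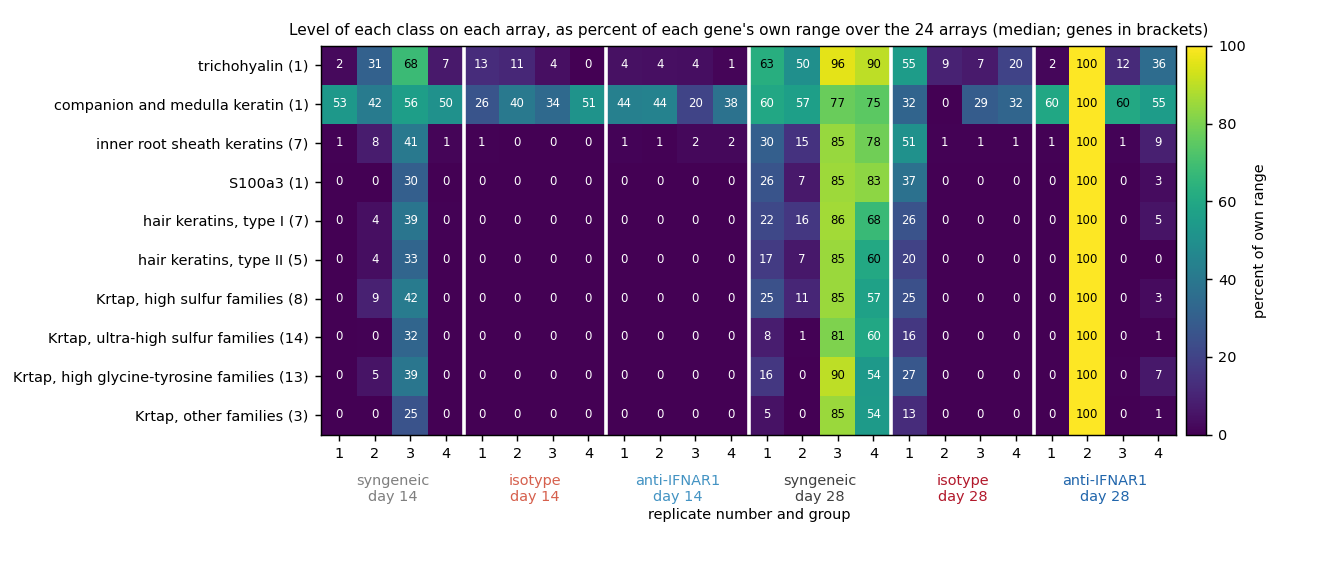
Median level of each class of hair gene on each array, as percent of each gene's own range over the 24 arrays, with the number of genes in brackets. Every class is at 100% on anti-IFNAR1 day 28 replicate 2, while on syngeneic day 28 replicate 1 Tchh is at 63% and the ultra-high sulfur Krtap genes at 8%.

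The 2 highest syngeneic arrays, day 28 replicates 3 and 4, differed by class. The sheath keratins were a median of 0.63 higher on replicate 3 (−0.20 to 1.14 over 7 genes), S100a3 0.19, Krt75 0.14 and Tchh 0.51 higher. The type I hair keratins were 1.28 higher, the ultra-high sulfur Krtap genes 1.62, the high sulfur ones 2.06 and the glycine- and tyrosine-rich ones 2.74. Within the last class the 6 Krtap19 genes were 4.01 to 7.60 higher, with a median of 4.55. Krtap19-1 was 4.39, 4.39, 12.21 and 4.61 on the syngeneic day 28 arrays and 13.12 on anti-IFNAR1 replicate 2. Krtap19-4 was 4.30, 4.30, 11.98 and 5.56, and 12.73 on anti-IFNAR1 replicate 2. The other 4 Krtap19 genes were between the extremes on replicate 4, with 8.89 for Krtap19-2, 9.68 for Krtap19-3, 8.57 for Krtap19-5 and 8.77 for Krtap19-9b. The 6 Krtap19 genes, close relatives clustered on chromosome 16, thus differed among themselves on that array, where Krtap19-1 and Krtap19-4 were the lowest. Between the 2 highest arrays of all, anti-IFNAR1 day 28 replicate 2 and syngeneic day 28 replicate 3, the 60 genes differed by a median of 1.24, with 59 higher on the former.

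Pooled over the 6 groups, the spread of these genes between arrays of one group was wide beside that of other genes. The SD of a gene about its 6 group means had a median of 2.34 over the 60 hair genes and 0.27 over all 18193 genes. For 58 of the 60 it was above the 95th percentile of all genes, 0.754, and 50 of the 100 genes with the largest such SD were hair genes. Krtap13 and Krtap5-3 were the 2 others. Without anti-IFNAR1 day 28 replicate 2 the median SD of the hair genes was 1.58. The standard error of a difference between 2 groups had a median of 1.63 for the hair genes and 0.188 for all genes, so that differences of a few log2 units could not be told from the spread for most of the 60.

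**Figure D4:**
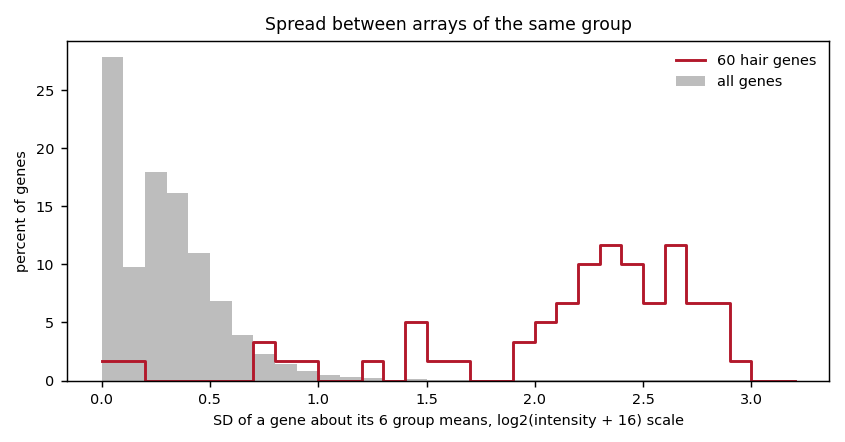
Distribution of the SD of each gene about its 6 group means, log2(intensity + 16) scale, for all 18193 genes (bars) and the 60 hair genes (line), in percent of each. The median is 0.27 for all genes and 2.34 for the hair genes.

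To ask how GVH-SSc skin differed from control skin at day 28, the isotype arrays were set against the syngeneic ones. This was done in limma with all 24 arrays in the fit and Benjamini-Hochberg adjustment over all genes. The groups differ in donor cells and in the antibody, none being named for the controls, so effects of the 2 cannot be told apart. Of the 60 genes, 59 had a lower mean with the isotype, the median difference was −3.27, and 5 fell at an adjusted p under 0.05 (8.33%). Over all genes 16.3% were called, 9.69% as lower, so the share of hair genes called was near the background. Krt75, the keratin of the companion layer and medulla, fell by 3.04 ± 0.65 (SE, limma adjusted p = 0.00298). Krt25 fell by 6.11 ± 2.05 (limma adjusted p = 0.0481) and Krt27 fell by 5.95 ± 2.01 (limma adjusted p = 0.0499). Krtap8-1 fell by 6.07 ± 1.91 (limma adjusted p = 0.0351) and Krtap4-6 fell by 4.50 ± 1.50 (limma adjusted p = 0.0465). The marker genes were not called, with −5.58 ± 1.92 for Krt71 (limma adjusted p = 0.0538), −4.48 ± 1.53 for Tchh (0.0515), −4.88 ± 1.85 for Krt33a (0.083) and −3.44 ± 1.61 for S100a3 (0.174). At an unadjusted p under 0.05, 30 of the 60 were lower, where 4916 of all 18193 genes passed in either direction. The median difference was −2.10 without syngeneic day 28 replicate 3 and −1.78 with array weights. The groups did not overlap for 4 genes, Krt36, Krt75, Krtap4-2 and Krtap4-6 (20.2% of all genes did not overlap). The count of 5 was set by single arrays: it was 34 without anti-IFNAR1 day 28 replicate 2, which is in neither group but widens the common spread, 10 without syngeneic day 28 replicate 2, 3 without anti-IFNAR1 day 28 replicate 4, and 1, Krt75, without syngeneic day 28 replicate 3 or 4 or isotype day 28 replicate 2, 3 or 4. It was 2 without syngeneic day 28 replicate 1, syngeneic day 14 replicate 2 or any 1 of the 8 GVH-SSc arrays of day 14. Krt75 was called under each of the 33 alternatives run.

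Krt75 was at least 1 above its own lowest value, 5.48 on isotype day 28 replicate 2, on the 23 other arrays, including those where Krt71 was at its lowest; Tchh followed with 12 arrays. It was 9.66, 9.43, 10.85 and 10.71 on the syngeneic day 28 arrays, 7.74, 5.48, 7.52 and 7.75 on the isotype ones and 9.64, 12.46, 9.68 and 9.33 on the anti-IFNAR1 ones. All 4 isotype arrays were below all 8 others of day 28, and isotype replicate 1, with most other hair genes raised, lay between replicates 3 and 4 for Krt75. At day 14 it was 9.21, 8.40, 9.40 and 9.00 in syngeneic, 7.30, 8.29, 7.86 and 9.07 in isotype and 8.53, 8.57, 6.91 and 8.11 in anti-IFNAR1 skin, and these groups overlapped. The isotype was lower than syngeneic by 0.87 at day 14 (limma adjusted p = 0.427), and the difference between days of that comparison was −2.17 ± 0.915 (limma adjusted p = 0.45).

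With anti-IFNAR1 against the isotype at day 28, which asks what blocking the receptor changed in GVH-SSc skin, 59 of the 60 means were higher and the median difference was 1.76. The same isotype arrays are in both day 28 comparisons. Krt75 was the 1 gene called (1.67%, against 13.3% of all genes in either direction and 8.42% higher) and rose by 3.15 ± 0.65 (SE, limma adjusted p = 0.00309). It was 2.43 higher without anti-IFNAR1 replicate 2 (limma adjusted p = 0.00622) and 2.61 higher without isotype replicate 2 (limma adjusted p = 0.0106), and was not called when only these 8 arrays were fitted (+3.15, limma adjusted p = 0.0766). Groups did not overlap for Krt75 and Krt36 (17.2% of all genes). Most of the other genes rested on 1 array: without anti-IFNAR1 day 28 replicate 2 the median difference of the 60 turned from 1.76 to −0.30, Krt71 went from 1.72 to −0.77, Krt33a from 1.94 to −0.54 and Tchh from 1.24 to −0.57. Without it 7 of the 60 means were higher and 53 lower, and Krt75, Krt36 and Krtap8-1 were among the 7. With array weights the median was 0.51. On the scale of the test these genes gave no call, with limma adjusted p = 0.734 for Krt71, 0.647 for Krt33a and 0.783 for Tchh. The change between days of this comparison was 3.25 ± 0.915 for Krt75 (limma adjusted p = 0.128), and none of the 60 was called (0.0715% of all genes were).

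Anti-IFNAR1 against syngeneic skin at day 28 gave no call among the 60 (0.033% of all genes) and a median difference of −1.50. Krt71 was lower by 3.86 ± 1.92 (limma adjusted p = 1), Tchh by 3.24 ± 1.53 (limma adjusted p = 1) and Krt75 higher by 0.11 (limma adjusted p = 1). No gene of the set had groups without overlap (1.71% of all genes). Tchh was the 1 gene of the 60 under an unadjusted p of 0.05 (2.03% of all genes were). The median ran from −3.62 without anti-IFNAR1 replicate 2 to −0.26 without syngeneic replicate 3. It was −2.55 without syngeneic replicate 2, −0.93 without syngeneic replicate 4 and −0.73 without any 1 of anti-IFNAR1 replicates 1, 3 and 4.

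At day 14 no hair gene was called by limma in any comparison, and none had an unadjusted p under 0.05. Of all genes 27.2% had one for isotype against syngeneic, 16.9% for anti-IFNAR1 against isotype and 14.3% for anti-IFNAR1 against syngeneic. The share called over all genes was 13.6% for isotype against syngeneic, 0.813% for anti-IFNAR1 against isotype and 1.12% for anti-IFNAR1 against syngeneic. The fit used 1 spread per gene over all 6 groups, with a median standard error of 1.63 for the hair genes. The SD of their mean was 0.01 in both GVH-SSc groups of day 14 and 1.06 to 3.99 in the other groups. The lack of low p-values thus rests in part on the spread of other groups. Fitted on only the arrays compared, no hair gene was called at day 14 either. All 60 means were lower in isotype than in syngeneic skin, by a median of 0.99, through syngeneic replicate 3 above all: without it the median was −0.12. It was −1.57 with array weights or an offset of 1. For 27 genes the 4 isotype arrays lay below the 4 syngeneic ones (13.3% of all genes did not overlap), but the gap between the groups had a median of 0.0028 and was at most 0.3208. For 18 genes the anti-IFNAR1 arrays lay below the syngeneic ones (7.49% of all genes), with gaps of at most 0.0052. These gaps are far under 1 doubling. Between anti-IFNAR1 and isotype the groups overlapped for all 60 (12.1% of all genes did not), and the median difference was 0.00.

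From day 14 to day 28, 58 of the 60 means were higher in syngeneic skin, with a median of 2.78, and 14 genes had an unadjusted p under 0.05 (9.08% of all genes did), but none was called by limma (0.077% of all genes). The median was 1.55 without syngeneic day 28 replicate 3 and 0.50 with array weights. Krt71 was 5.02 ± 1.92 higher (limma adjusted p = 0.377), Tchh 4.13 ± 1.53 (limma adjusted p = 0.35) and Krt25 5.11 ± 2.05 (limma adjusted p = 0.412). Krt75 was the 1 gene whose days did not overlap, by a gap of 0.0271 (3.49% of all genes). In isotype skin the median was 0.50, or 0.00 without day 28 replicate 1, and none was called (2.2% of all genes) and Krt73 alone did not overlap (8.11%). In anti-IFNAR1 skin the median was 2.25, or 0.06 without day 28 replicate 2 and 0.62 with array weights. None was called there (0.555%), while Krt32, Krt36, Krt75, Krtap19-5 and Krtap22-2 did not overlap (10.0%), with gaps of 0.0007 to 0.7557. The change between days of isotype against syngeneic had a median of −2.35 and no call (0.044%). That median was −1.19 without syngeneic day 28 replicate 3 and −0.34 with array weights.

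Other genes of the hair follicle were followed on the same arrays. Lef1, the Wnt-pathway factor of the fibre-forming cells, was 4.83, 4.53, 6.46 and 6.37 on the syngeneic day 28 arrays, 8.38 on anti-IFNAR1 day 28 replicate 2 and between 4.45 and 4.67 on all 19 others. Shh, the growth signal of the hair matrix, was 6.64, 5.46, 8.67 and 9.52 on the syngeneic day 28 arrays, 8.06 on isotype replicate 1 and 9.83 on anti-IFNAR1 replicate 2. Hoxc13, a regulator of hair keratin genes, was 7.20, 6.62, 9.22 and 8.87 on the syngeneic day 28 arrays, 7.33 on isotype replicate 1 and 10.70 on anti-IFNAR1 replicate 2. These 3 were thus highest on the arrays where the hair genes were highest, and on isotype replicate 1 Shh was raised where Lef1, at 4.54, was not. Mki67, a marker of dividing cells, was 12.22 on anti-IFNAR1 replicate 2 and 12.17 on isotype day 28 replicate 1, but 10.35, the lowest of its group, on syngeneic day 14 replicate 3. Within the anti-IFNAR1 day 28 group all 12 cell division genes were highest on replicate 2, where their mean was 10.08 against 7.82 to 8.20 on the others. In the syngeneic day 28 group the 7 of them with a range of at least 1 were highest on replicates 3 or 4, and in the syngeneic day 14 group none was highest on replicate 3. On isotype day 28 replicates 1 to 4 the mean of the cell division genes was 9.63, 9.25, 9.29 and 10.02. It was thus highest on replicate 4, where the hair genes were near their lowest. On the isotype arrays of day 14, with hair genes also near their lowest, it was 8.99 to 9.76. Of 9 other fibre genes 8 were highest on anti-IFNAR1 day 28 replicate 2, as were 10 of 16 growth signals, 9 of 16 hair transcription factors, 9 of 11 pigment cell genes, 4 of 12 cell division genes, 3 of 12 resting stem cell genes, 3 of 14 dermal papilla genes and 0 of 23 other keratins.

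**Figure D5:**
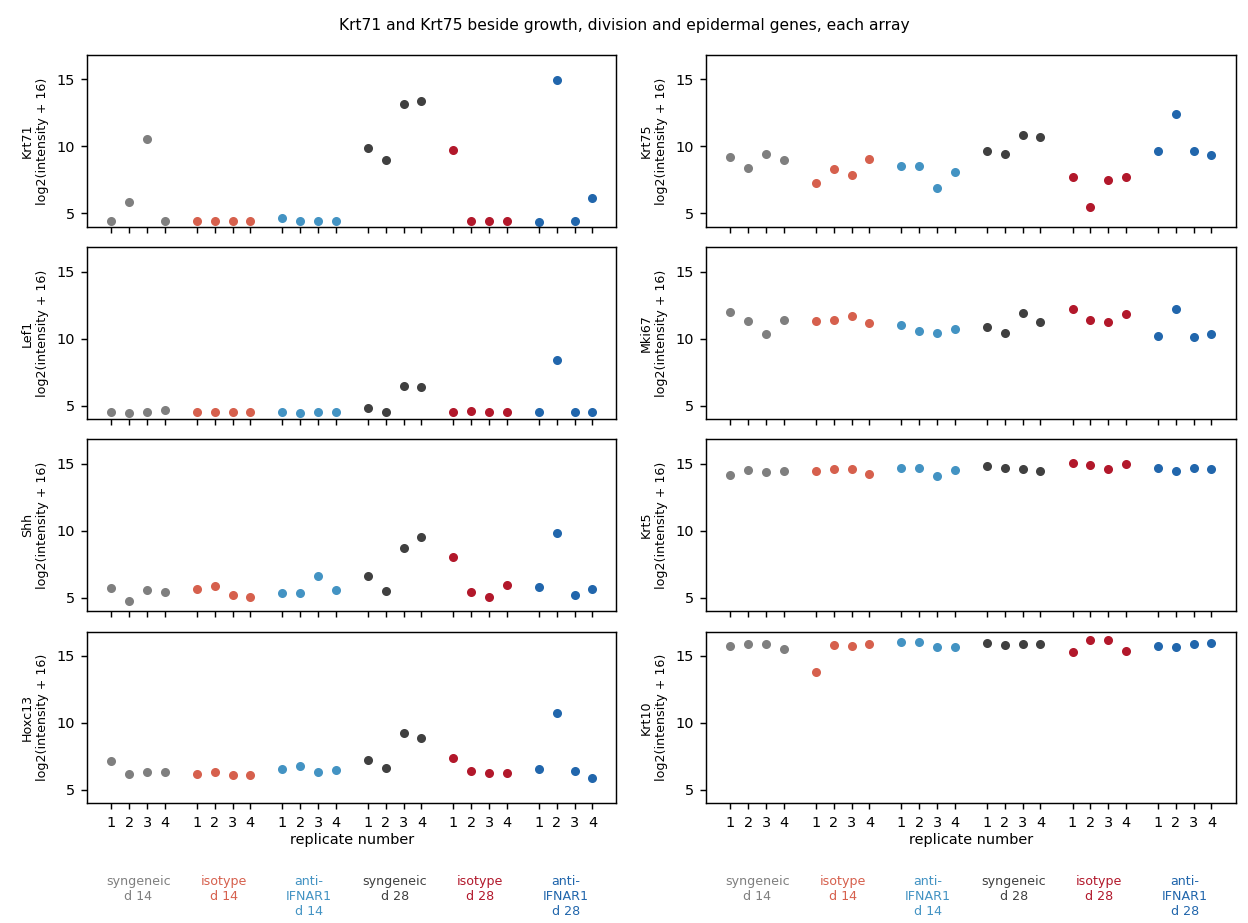
Krt71 and Krt75 beside Lef1, Shh, Hoxc13, Mki67, Krt5 and Krt10 on each array (points, log2(intensity + 16)), by replicate number and group. Lef1 and Shh reach 8.38 and 9.83 on anti-IFNAR1 day 28 replicate 2, where Krt71 is 14.94, while Krt5 stays between 14.08 and 15.08 on all 24 arrays.

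By limma at day 28, isotype against syngeneic, 4 of the 16 growth signals fell and 1 rose. That list gathers signalling genes of the follicle, and a place in it does not say that a gene promotes growth. Bmp4, a signal of the dermis and matrix, fell by 1.84 ± 0.38 (limma adjusted p = 0.00214), and Ptch1, the Shh receptor, fell by 1.40 ± 0.27 (limma adjusted p = 0.00153). With anti-IFNAR1 against the isotype, Bmp4 rose by 1.67 ± 0.38 (limma adjusted p = 0.00592) and Ptch1 by 0.93 ± 0.27 (limma adjusted p = 0.0284). Wnt10a, another gene of the list, was called as lower in that comparison. Of the hair transcription factors, 2 of 16 fell with the isotype, Lhx2 by 2.56 and Msx1 by 1.26, and Ovol1 rose by 1.49. Ovol1 was the 1 hair factor called with anti-IFNAR1 against the isotype, as lower. Of 12 genes of resting stem cells 6 fell with the isotype, Krt15 by 2.19 ± 0.47 (limma adjusted p = 0.003) among them, and 5 rose with anti-IFNAR1. None of the 11 pigment cell genes or 12 cell division genes was called in either comparison. Lef1, Shh and Hoxc13 were not called either (limma adjusted p = 0.339, 0.351 and 0.249 for isotype against syngeneic). Of all genes, 16.3% were called for isotype against syngeneic (9.69% as lower) and 13.3% for anti-IFNAR1 against isotype (8.42% as higher). The counts for the hair factors, pigment cell genes and cell division genes were near or under these shares. The medians of isotype against syngeneic were −0.52 over the growth signals, −0.53 over the hair factors and −1.25 over the stem cell genes, beside a median of about 0 over all genes. Over the pigment cell genes the median was −0.72, and over the cell division genes it was 0.89. With anti-IFNAR1 against the isotype the cell division median was −1.04.

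At day 28, most of the sebaceous gland, fat cell and skeletal muscle genes listed fell with the isotype, as Krt75 did, and the T cell genes rose. Over all genes 16.3% were called for isotype against syngeneic, 9.69% as lower. The mean of 6 sebaceous gland genes was 8.95 to 9.50 on the syngeneic, 7.03 to 7.51 on the isotype and 9.23 to 9.52 on the anti-IFNAR1 arrays, and 4 of the 6 fell with the isotype. The 4 were Scd1, Elovl6, Far2 and Pparg, and 6 of the 10 genes listed were measured. Whole skin does not tell gland cells from fat cells as their source, and this was not tested. The mean of 6 fat cell genes was 10.65 to 11.47, 8.89 to 9.83 and 10.74 to 11.69 on the same arrays, and 5 of 6 fell. That of 8 skeletal muscle genes was 13.90 to 14.90, 12.67 to 14.10 and 14.09 to 14.82, ranges that overlapped, and 5 of 8 fell. That of 6 T cell genes was 4.66 to 5.10, 7.29 to 7.61 and 5.57 to 6.02, and 6 of 6 rose. Their part in the result for Krt75 was not tested. Isotype day 28 replicate 1, with the high sheath keratins, had a T cell mean of 7.50, within the range of its group. All 24 arrays carried the markers of epidermis, with Krt5, of its basal layer, at 14.08 to 15.08 and Krt10, of its upper layers, at 13.77 to 16.20.

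The arrays had median intensities of 14.84 to 17.71, and the number of arrays limits the precision. No 2 arrays held the same values, and pairs correlated at 0.919 to 0.995 over all probe sets. The log2 ratio of the 3′ to the 5′ control probe sets of Gapdh, higher where RNA is less complete, ran from 0.62 to 6.36 over the arrays. It was 1.83 on anti-IFNAR1 day 28 replicate 2, 4.10 and 0.86 on syngeneic day 28 replicates 3 and 4, 4.59 on isotype day 28 replicate 1 and 0.97 on syngeneic day 14 replicate 3, so the arrays of high hair gene level lay at low and at high ratios. With this ratio as a covariate, 5 hair genes were called for isotype against syngeneic at day 28, as without it.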

How the data were processed

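Total RNA of shaved dorsal skin was hybridised to 24 single-colour Affymetrix mouse arrays. The deposited values are linear intensities per probe set; the summary and normalization steps of the authors are not given in the sources used here. Of 45101 probe sets, 34945 had 1 gene symbol, 932 had several and 9160 had none in the platform annotation; symbols were updated through Entrez identifiers to RefSeq GRCm38.p6. From the deposited intensities, log2(intensity + 16) was computed and 1 probe set per gene kept, that with the highest mean, which gave 18193 genes. Group means were fitted on all 24 arrays in limma 3.58.1 (R 4.3.3; lmFit, eBayes), with Benjamini-Hochberg adjustment over all genes and a threshold of 0.05, for 11 comparisons; the script was tested on simulated data. Calls were compared with quantile normalization, an offset of 1, a filter on dim genes, mean probe sets, fits on fewer arrays, other priors, array weights, a replicate block, a Gapdh covariate and each array left out. Krtap genes were classed by family number, where a class by protein composition had been planned, since no protein table was used here. The placing of families was a choice made here. Krtap10-4 and Krtap12-1 were put with the ultra-high sulfur genes and Krtap16-3 with other families, and the class medians rest on this choice. The genes named are the set markers, the 3 brightest and the dimmest gene of each class, the called genes with the largest changes and fixed reference genes. Krt36, Krt81, Krt73 and other genes named by counts of overlap or level were chosen after their values were seen. The members and the 12 comparison lists were chosen with earlier results of these data known.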

Additional observations from a re-analysis of the deposited data

Results flagged for a closer look

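Within each group, the mean of the 60 hair genes and 9 single genes were checked for an array far from the other 3, by the gap to its nearest neighbour as a share of the group's range (Dixon's 95% critical value for 4 arrays). Of 60 such checks 19 passed, and chance passes about 1 in 20. They lie mostly on 2 arrays, and the checks share those arrays, so they are not independent.

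On isotype day 28 replicate 1, the mean of the hair genes was 6.65 against 4.51 to 4.57 on the other 3 arrays. Krt71 was 9.73, Krt33a 6.91, S100a3 7.39, Krt25 11.49, Krt27 10.40, Krtap8-1 9.30 and Krtap4-6 6.17 there, each far above the other 3 arrays of the group. On anti-IFNAR1 day 28 replicate 2, the mean was 12.74 against 4.58 to 5.09, and Krt71 was 14.94, Krt33a 14.36, S100a3 12.66, Krt75 12.46 and Krtap4-6 12.96.

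On syngeneic day 14 replicate 3, S100a3 was 6.79 and Krtap4-6 was 8.35, above the other 3 arrays. Krt75 was low on isotype day 28 replicate 2, at 5.48 against 7.52 to 7.75. The remaining 2 are small in size: the mean of the hair genes was 4.52 on isotype day 14 replicate 3 against 4.54 on each of the others, and Krt71 was 4.65 on anti-IFNAR1 day 14 replicate 1 against 4.44 to 4.46.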

How the results depend on the processing

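For isotype against syngeneic at day 28 the count of 5 hair genes called became 2 with quantile normalization or only the arrays compared, 8 with an offset of 1, 11 with only genes of mean above 5, 13 with array weights, and 1 to 34 with each array left out in turn (34 without anti-IFNAR1 day 28 replicate 2). For anti-IFNAR1 against isotype at day 28 the 1 call was lost with only the arrays compared (0) and stayed at 1 to 1 with each array left out. Array weights gave 2 calls for isotype against syngeneic at day 14, 3 for anti-IFNAR1 against syngeneic at day 28 and 1 for the change between days of anti-IFNAR1 against isotype, each from 0. The other 6 comparisons gave 0 under all 33 alternatives run.

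Deviations of arrays with the same replicate number correlated at a median of −0.033 (−0.616 to 0.571, 60 pairs). Those of arrays with different numbers correlated at a median of 0.0096 (−0.576 to 0.614, 180 pairs). The labels do not say what the numbers stand for, and these correlations cannot exclude a pairing. The replicate block gave 1 call, Krt75, for isotype against syngeneic at day 28.

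Signs reversed without anti-IFNAR1 day 28 replicate 2 in anti-IFNAR1 against isotype at day 28. With each array left out in turn, the median difference ran from −0.30 to 2.51, that of the change between days from −0.33 to 2.55, Krt71 from −0.77 to 3.04, Krt33a from −0.54 to 2.79, Tchh from −0.57 to 2.27, S100a3 from −0.69 to 2.17, Krt25 from −0.25 to 3.83, Krt27 from −0.57 to 3.30 and Krtap4-6 from −0.41 to 2.48. Krt75 kept its call under 33 of 33 alternatives for isotype against syngeneic (limma adjusted p up to 0.0257) and 32 of 33 for anti-IFNAR1 against isotype. The cause of these changes was not tested. The 4 arrays a group and values at the bottom of the scale limit what can be read of dim genes.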
